A study of Mus musculus with 2 samples.

Results

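The levels of 8 mouse genes of TNF receptor costimulation were compared between T and NK cells of control mice and of mice in which Ets1 was targeted for deletion. The set holds 5 receptor genes (Tnfrsf4, Tnfrsf9, Tnfrsf18, Tnfrsf1b and Cd27), 1 ligand gene (Tnfsf8) and 2 adaptor genes (Traf1 and Traf2), out of 32285 features counted. They were chosen by symbol with this contrast in view, because Tnfrsf9 was higher and Traf1 lower in the Ets1-targeted library, so the values below describe these libraries and are not a test. YFP+ thymus cells were sorted from 2 pooled mice of each genotype and made into 1 single-cell library per genotype. The control library came from Tbx21Cre Rosa26-YFP+ mice and the cKO library from Tbx21Cre Ets1F/F Rosa26-YFP+ mice. Cre under the control of Tbx21, which encodes T-bet, and a YFP reporter that stays on once Cre has acted were present in both genotypes. YFP therefore marks cells with a history of Tbx21 expression, whether or not they still express it, and the loxP-flanked Ets1 is removed only in cells that expressed Cre. Pooled mice cannot be told apart, and with 1 library per genotype no replicate spread and no p-value can be given.

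Receptors of the TNF family have no enzyme activity of their own and signal by gathering TRAF adaptors at their cytoplasmic tails, from which the NF-kB and MAP kinase pathways are switched on. On T and NK cells several of them give a second signal that supports division and survival after antigen recognition. TRAF2 is a ubiquitin ligase that recruits the cIAP ligases. TRAF1, the one TRAF without a RING domain, joins TRAF2 at receptors such as CD137, the product of Tnfrsf9, and its gene is itself induced by NF-kB. ETS1 is a transcription factor of lymphocytes that binds DNA motifs with a GGAA core.

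The control library held 7395 cells and the cKO library 5903 cells after filtering, with medians of 2666 and 5533 UMIs per cell. A UMI is a counted RNA molecule, and levels are UMIs of a gene per 1000000 UMIs of the cells summed (CPM). Mitochondrial UMIs were over the limit in 6.76% of control and 28.6% of cKO barcodes, and 29 barcodes occurred in both libraries. The 4 classes were set by gates of 1 UMI. The first and largest, CD3+ Cd8b1-negative T cells, had 6236 control and 2976 cKO cells. The Cd4+ Ctla4+ T cells numbered 48 and 128, the CD8 T cells (CD3+ with Cd8b1) 907 and 621, and the NK cells (Ncr1 without CD3) 105 and 53. Of the Cd4+ Ctla4+ cells, 45 control and 111 cKO cells also lie in the first class and 3 and 17 in the CD8 class. Summed T cell markers, all 8 of 8 detected, came to 7145 CPM for the control and 7179 CPM for the cKO library in the first class. Both libraries are titled thymic iNKT1. Of this class, 164 control and 139 cKO cells held a UMI of Trav11, the alpha chain segment of invariant natural killer T cells. The libraries were 3′ and the class medians 2582 and 6744 UMIs, so these are counts of detection and not shares of such cells. Markers of other cells also differed there. The 8 gut epithelium markers, 7 of them detected in control and 8 in cKO, summed to 6.85 and 856 CPM. The 4 B cell markers summed to 72.0 and 218 CPM, the 7 myeloid markers to 193 and 381 CPM, and the 3 stromal markers to 0.412 and 24.1 CPM. The 5 double-positive thymocyte markers summed to 47.4 and 36.4 CPM. Ets1 itself was lower in cKO cells of every class, at 524 and 168 CPM in the first class, 568 and 265 CPM in Cd4+ Ctla4+, 368 and 177 CPM in CD8 T and 375 and 80.1 CPM in NK cells. B cells, defined by Cd79a without CD3, had 211 and 128 CPM of Ets1. Some Ets1 RNA thus remained in the cKO library, and deletion of the gene in single cells was not measured.

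The promoters of Tnfrsf9 and Traf1 are shown because these genes carry the contrast, 1 higher and 1 lower in cKO cells. The sequences are from RefSeq on GRCm38.p6 and run from 250 bases before to 50 bases after an annotated start, 5′ to 3′ along the gene. Capitals mark matches, on either strand, to the ETS core GGAAG or to the NF-kB pattern, GGG and CC with any 5 bases between them, where overlapping matches form 1 run.
Tnfrsf9 upstream start, chr4:150919905-150920204, plus strand: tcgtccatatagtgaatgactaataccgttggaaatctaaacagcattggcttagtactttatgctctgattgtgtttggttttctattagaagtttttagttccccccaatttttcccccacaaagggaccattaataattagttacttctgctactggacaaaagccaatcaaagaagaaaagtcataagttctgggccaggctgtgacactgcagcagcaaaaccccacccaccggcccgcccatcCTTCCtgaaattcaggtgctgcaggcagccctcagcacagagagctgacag
Tnfrsf9 downstream start, chr4:150927749-150928048, plus strand: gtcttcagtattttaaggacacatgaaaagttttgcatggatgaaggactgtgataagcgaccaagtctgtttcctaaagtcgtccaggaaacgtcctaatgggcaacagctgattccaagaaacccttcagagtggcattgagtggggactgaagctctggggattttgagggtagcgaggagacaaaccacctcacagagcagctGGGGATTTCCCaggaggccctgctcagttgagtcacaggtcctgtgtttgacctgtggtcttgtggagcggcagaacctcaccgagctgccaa
Traf1, chr2:34961723-34962022, minus strand: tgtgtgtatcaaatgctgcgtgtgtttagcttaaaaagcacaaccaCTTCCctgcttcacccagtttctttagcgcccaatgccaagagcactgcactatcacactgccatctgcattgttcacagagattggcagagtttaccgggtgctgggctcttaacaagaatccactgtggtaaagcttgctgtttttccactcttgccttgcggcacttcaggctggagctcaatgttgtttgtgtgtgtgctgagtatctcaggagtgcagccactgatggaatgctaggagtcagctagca
Of the 8 genes 5 lie on chromosome 4, among them Tnfrsf9 at chr4:150914562-150946102 (plus strand) and the near neighbours Tnfrsf4 at chr4:156013843-156016612 and Tnfrsf18 at chr4:156026164-156028895. Traf1 lies at chr2:34941750-34961772 (minus strand), all in GRCm38 with GENCODE vM21. The upstream Tnfrsf9 window held 1 ETS core, read on the minus strand at position -1 from the start, and no NF-kB match. The downstream window held 3 overlapping NF-kB matches from position -43 and no ETS core in the GGAAG form searched. Traf1 held 1 ETS core, on the minus strand at position -204, and no NF-kB match. None of the 3 windows held the longer ETS1 consensus CCGGAAG. The shorter GGAA was not searched for, and it also occurs outside the capitals in each of the 3 windows. Of 32851 promoter windows of this length, 71.4% held the ETS core, 50.8% the NF-kB pattern and 8.86% the ETS1 consensus. A match is only letters in a window, and no binding was measured.

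In CD3+ Cd8b1-negative T cells the receptor gene Tnfrsf9 was 8.22-fold higher in cKO cells and the adaptor gene Traf1 was 1.92-fold lower, with Tnfrsf4 and Tnfsf8 also higher and the 4 other genes within 1.5-fold. A call needed a difference of at least 1.5-fold in CPM, a level of 20 CPM or more in 1 library, and an exact 95% interval of the ratio, which covers counting error only, that left out 1. Of the 8 genes 3 were called higher and 1 lower, where 12.7% of 5964 genes reaching 20 CPM were called higher and 5.08% lower. The median log2 ratio was 0.30 over the 8 genes and 0.16 over all 5964. Scaling moved the whole class: the log2 ratios were lower by a uniform step, -0.14 with median-ratio scaling and -0.17 with totals without mitochondrial and ribosomal protein genes. The share of calls that were higher then went from 71.4% to 51.3% and 49.0%.

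**Figure D1:**
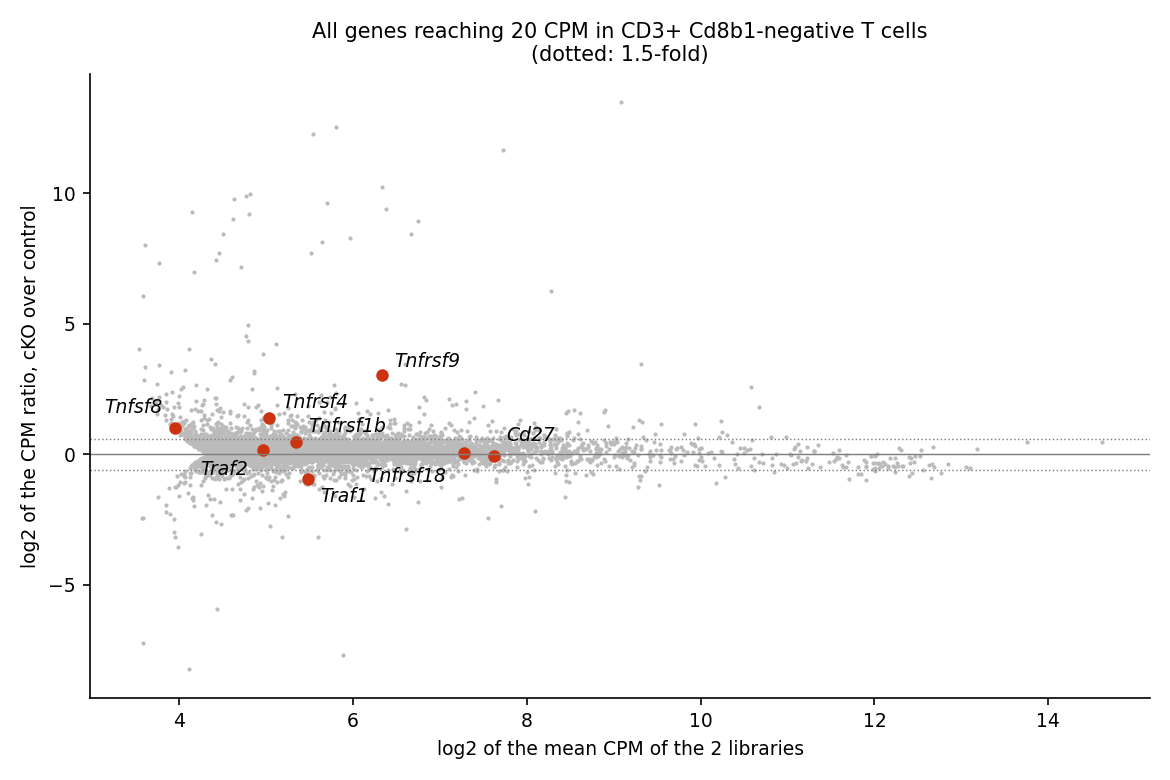
Each point is 1 of 5964 genes reaching 20 CPM in CD3+ Cd8b1-negative T cells, with the log2 of its mean CPM over the 2 libraries on the x axis and the log2 ratio of cKO over control on the y axis. Tnfrsf9, at 3.04, had the 45th highest ratio, and Traf1, at -0.94, the 132nd lowest.

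Among the receptors, Tnfrsf9 had 466 UMIs, 17.4 CPM (15.9 to 19.1), in the control library against 3145 UMIs, 144 CPM (138 to 149), in the cKO library, a ratio of 8.22 (7.46 to 9.08). No single cell held more than 54 of the cKO UMIs. After every cell was thinned to 1500 UMIs, Tnfrsf9 was found in 2.31% (1.88 to 2.80, exact Clopper-Pearson) of 4329 control and 17.8% (16.4 to 19.2) of 2867 cKO cells, with 1907 and 109 shallower cells left out. Unthinned, the shares were 5.58% and 43.6%, at medians of 2582 and 6744 UMIs. B cells, which serve as the background for free RNA, had a thinned Tnfrsf9 UMI in 1 of 35 control and 0 of 219 cKO cells. The control share, 2.86% (0.0723 to 14.9), has an interval that holds the 2.31% of control T cells. In cKO a count of 0 allows up to 1.37%. Of the 311 cKO B cells 46.0% held at least 2 gut marker UMIs. The unthinned medians of the B cells were 2133 and 2941 UMIs.

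Tnfrsf4 encodes OX40, a receptor of activated and regulatory CD4 T cells. It stood at 18.1 CPM (16.5 to 19.8) in the control against 47.6 CPM (44.7 to 50.6) in the cKO library, a ratio of 2.62 (2.36 to 2.93). These UMIs were concentrated: in the cKO library 742 of 1043 lay in the 136 cells, 4.57% of the class, that held Foxp3 or both Cd4 and Ctla4, without B cell markers. In control, 136 of 484 lay in 62 such cells. Without all Cd4+ Ctla4+ and Foxp3+ cells the log2 ratio of Tnfrsf4 was 0.02 and no call was made.

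The other receptor genes differed less in this class. Tnfrsf18, which encodes GITR, stood at 153 and 157 CPM, and Cd27, the receptor of the ligand CD70, at 200 and 194 CPM. Their ratios were 1.03 (0.983 to 1.08) and 0.966 (0.927 to 1.005). Tnfrsf1b, which encodes TNFR2, was at 34.1 CPM (31.9 to 36.4) in the control against 46.8 CPM (44.0 to 49.8) in the cKO library. Its ratio of 1.37 (1.26 to 1.504) was just under the 1.5 needed.

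The ligand gene Tnfsf8, which encodes CD30 ligand, had 272 UMIs, 10.2 CPM (9.01 to 11.5), in the control library against 455 UMIs, 20.8 CPM (18.9 to 22.8), in the cKO library. The ratio was 2.04 (1.75 to 2.38), and the cKO level was just over the 20 CPM needed. With median-ratio scaling its log2 ratio was 0.89 and no call was made. Without Cd4+ Ctla4+ and Foxp3+ cells, which held 39.6% of its cKO UMIs, it was 0.49.

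The adaptor gene Traf1 had 1568 UMIs, 58.7 CPM (55.8 to 61.7), in the control library against 669 UMIs, 30.5 CPM (28.2 to 32.9), in the cKO library, a ratio of 0.520 (0.474 to 0.570). In thinned cells it was found in 346 of 4329 control cells, 7.99% (7.20 to 8.84), and in 86 of 2867 cKO cells, an interval of 2.41 to 3.69%, against unthinned shares of 18.2% and 11.9%. Traf2, the other adaptor gene, stood at 29.6 CPM (27.6 to 31.7) and 32.8 CPM (30.4 to 35.3), a ratio of 1.11 (1.001 to 1.23).

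**Figure D2:**
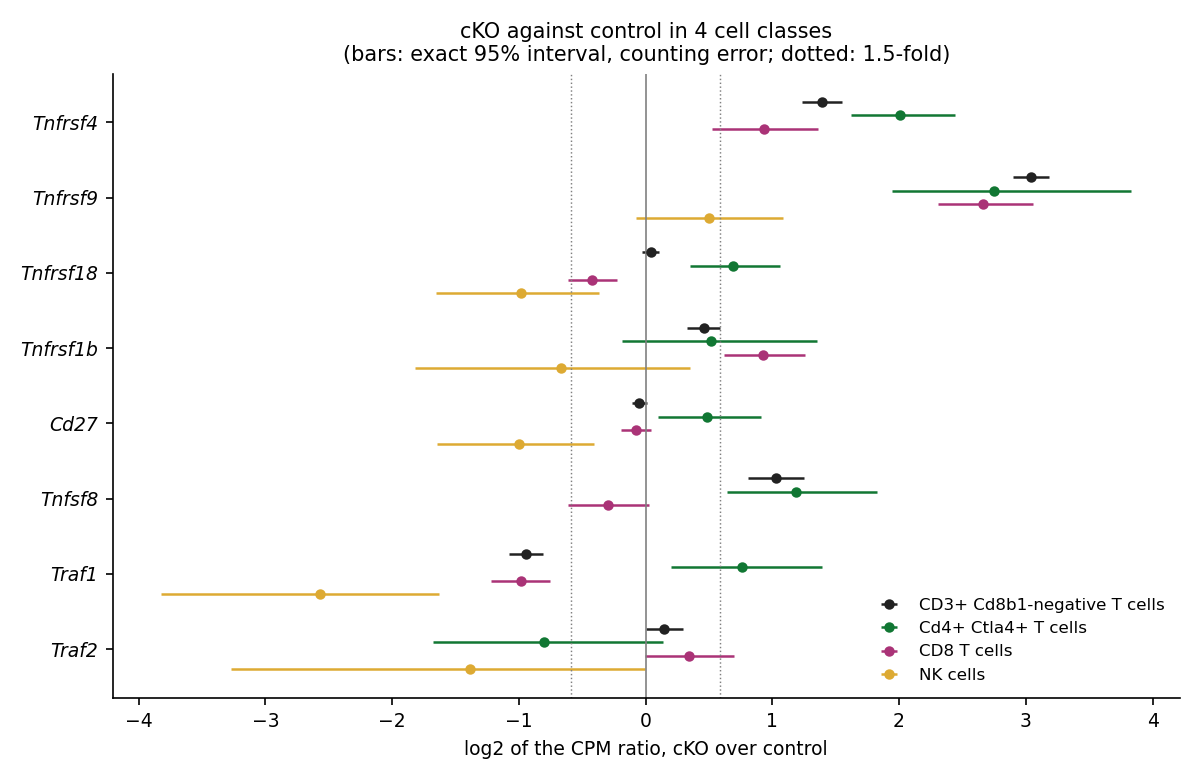
The log2 ratio of CPM, cKO over control, is shown for each gene in 4 classes, with exact 95% intervals for counting error. Traf1 lies left of 0 in CD3+ Cd8b1-negative T, CD8 T and NK cells and right of 0 in Cd4+ Ctla4+ T cells, while Tnfrsf9 lies right of 0 in all 4, with an interval that spans 0 in NK cells. Tnfrsf4 and Tnfsf8 are not drawn for NK cells, where 1 library had at most 1 UMI.

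Part of the Traf1 signal in cKO cells of the first class lay in cells with B cell markers. In that library 106 cells, 3.56% of the class, held at least 2 UMIs of the B cell markers, and these held 198 of the 669 Traf1 UMIs, 29.6%. Their median was 11786 UMIs, against 6680 for the rest of the class. In control, 185 cells of this kind, with a median of 1926 UMIs, held 85 of 1568 Traf1 UMIs. Traf1 in these cells was at 115 CPM in the control against 142 CPM in the cKO library, and in B cells it was at 147 CPM (110 to 194) and 85.7 CPM (72.8 to 100). Doublets were not removed, and their part in this was not tested. Without the cells holding B cell markers, Traf1 stood at 57.1 and 22.9 CPM, a ratio of 0.402 (0.361 to 0.446). Without the Cd4+ Ctla4+ cells as well it stood at 56.8 and 17.3 CPM, a ratio of 0.304 (0.269 to 0.342). Without the 248 cKO and 16 control cells holding at least 2 gut marker UMIs, the ratio was 0.529 (0.481 to 0.580). The 1860 cKO cells with gut markers and neither CD3 nor Ncr1 had 11.9 CPM of Traf1 and 2.095 CPM of Tnfrsf9.

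**Figure D3:**
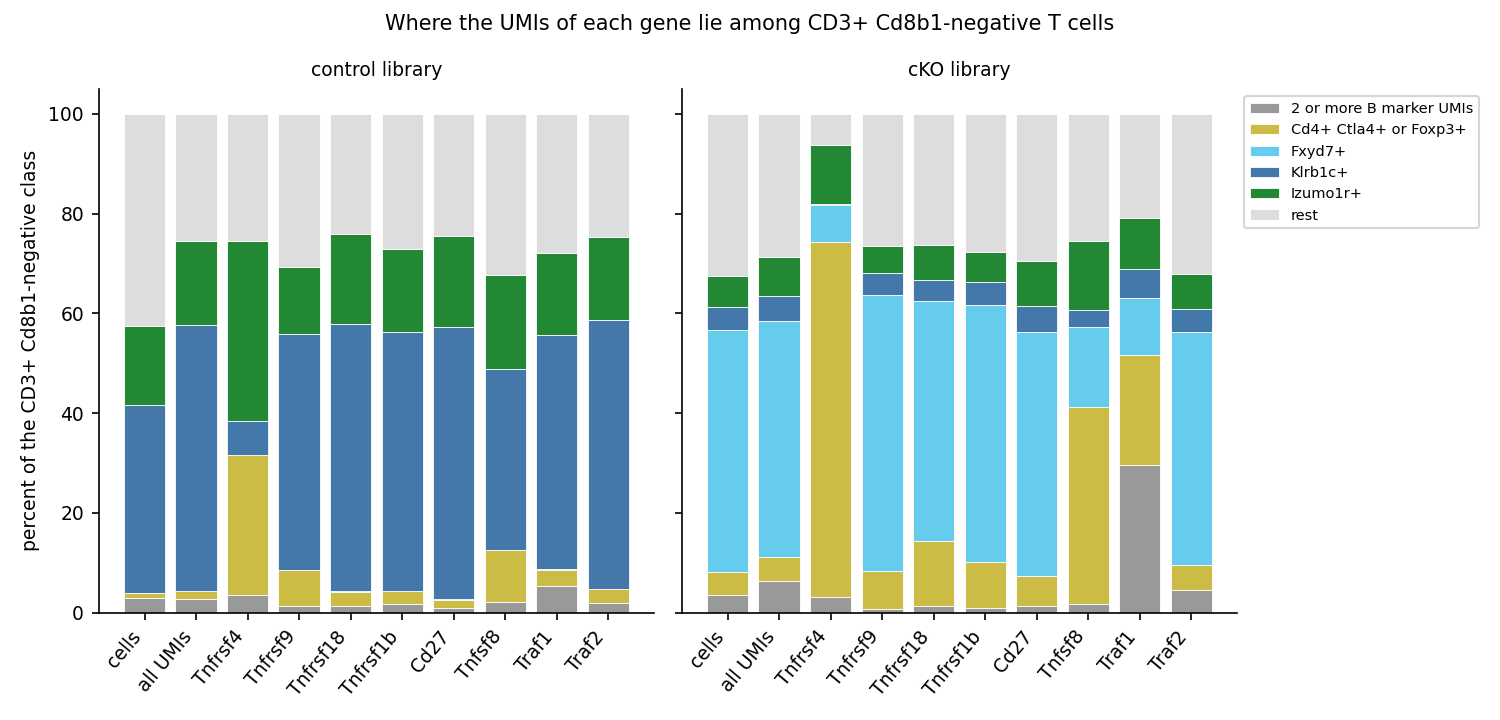
Each bar divides the cells, all UMIs or the UMIs of 1 gene in CD3+ Cd8b1-negative T cells, as percent, among 6 groups of cells that do not overlap, for the control (left) and cKO library (right), each cell being placed in the first group of the legend that it meets. In the cKO library, cells with B cell markers held 29.6% of Traf1 UMIs, the Cd4+ Ctla4+ or Foxp3+ cells 71.1% of Tnfrsf4 UMIs, and the Fxyd7+ cells, which held 47.3% of all UMIs, 55.5% of Tnfrsf9 and 11.4% of Traf1 UMIs.

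Among the subsets of the first class described here, the opposite difference of Tnfrsf9 and Traf1 was widest in the cells with a Trav11 UMI, whose median depths were close, at 6669 and 6618 UMIs. Tnfrsf9 had 14 UMIs in 164 control and 190 UMIs in 139 cKO cells, 12.2 and 176 CPM, a ratio of 13.9 (8.36 to 26.8). Traf1 had 66 and 9 UMIs, 57.6 and 8.32 CPM, and was 6.61-fold lower (3.43 to 15.8). Tnfrsf1b was called higher there, at 29.7 and 55.5 CPM with a ratio of 1.86 (1.21 to 2.94). Tnfrsf18 stood at 148 and 173 CPM, Cd27 at 206 and 200 CPM and Traf2 at 21.8 and 30.5 CPM, none of them called. Tnfrsf4 had 2 and 3 UMIs, with a ratio of 1.48 (0.182 to 19.0). Near-identical annotated copies make the counts of Trav11 itself uncertain.

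Klrb1c encodes the receptor NK1.1, which mature invariant natural killer T cells carry. In the 2396 control and 351 cKO cells of the first class that held its UMIs, Tnfrsf9 was at 15.4 and 142 CPM and Traf1 at 53.4 and 23.3 CPM, a ratio of 0.439 (0.335 to 0.560). Tnfrsf4 was near 3 CPM in both, at 3.09 and 3.13 CPM. Tnfrsf1b, at 33.4 and 50.04 CPM, was called higher with a ratio of 1.503 (1.24 to 1.81). The Klrb1c+ values include cells of other groups. Those with B cell markers, Foxp3, both Cd4 and Ctla4, or Fxyd7 were placed elsewhere, which left 2349 control and 135 cKO cells. In these Tnfrsf9 was at 15.5 and 122 CPM, Traf1 at 51.9 and 35.4 CPM and Tnfrsf1b at 33.2 and 44.5 CPM.

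In 1028 control and 332 cKO cells with Izumo1r, the gene of folate receptor FR4, and without Klrb1c, Tnfrsf9 was again higher, at 17.7 and 127 CPM, but Traf1 was at 61.1 and 56.8 CPM, a ratio of 0.931 (0.766 to 1.13). Tnfrsf4 there stood at 52.3 and 152 CPM and Tnfsf8 at 14.6 and 65.7 CPM, both called higher. These values include cells of other groups: in the Izumo1r+ cells left after those with B cell markers, Foxp3, both Cd4 and Ctla4, Fxyd7 or Klrb1c were placed elsewhere, 983 control and 184 cKO cells, Traf1 was at 56.8 and 40.7 CPM. Tnfrsf4 was at 38.9 and 73.7 CPM there, and Tnfsf8 at 11.3 and 37.1 CPM. In cycling cells, those with Mki67 or Top2a, Tnfrsf9 was at 15.4 and 95.9 CPM and Traf1 at 60.8 and 61.5 CPM. Tnfrsf4 was at 22.2 and 92.1 CPM in cycling cells and Tnfsf8 at 9.41 and 38.2 CPM, both called higher. The cycling cells were not split by the other groups, whose part in their Traf1 level was not tested. Fxyd7, an ion pump regulator, was found in 2 control and 1487 cKO cells of the first class, so this subset has no control to set it against. Those cKO cells had 163 CPM of Tnfrsf9 (155 to 171) and 12.4 CPM of Traf1 (10.4 to 14.7).

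**Figure D4:**
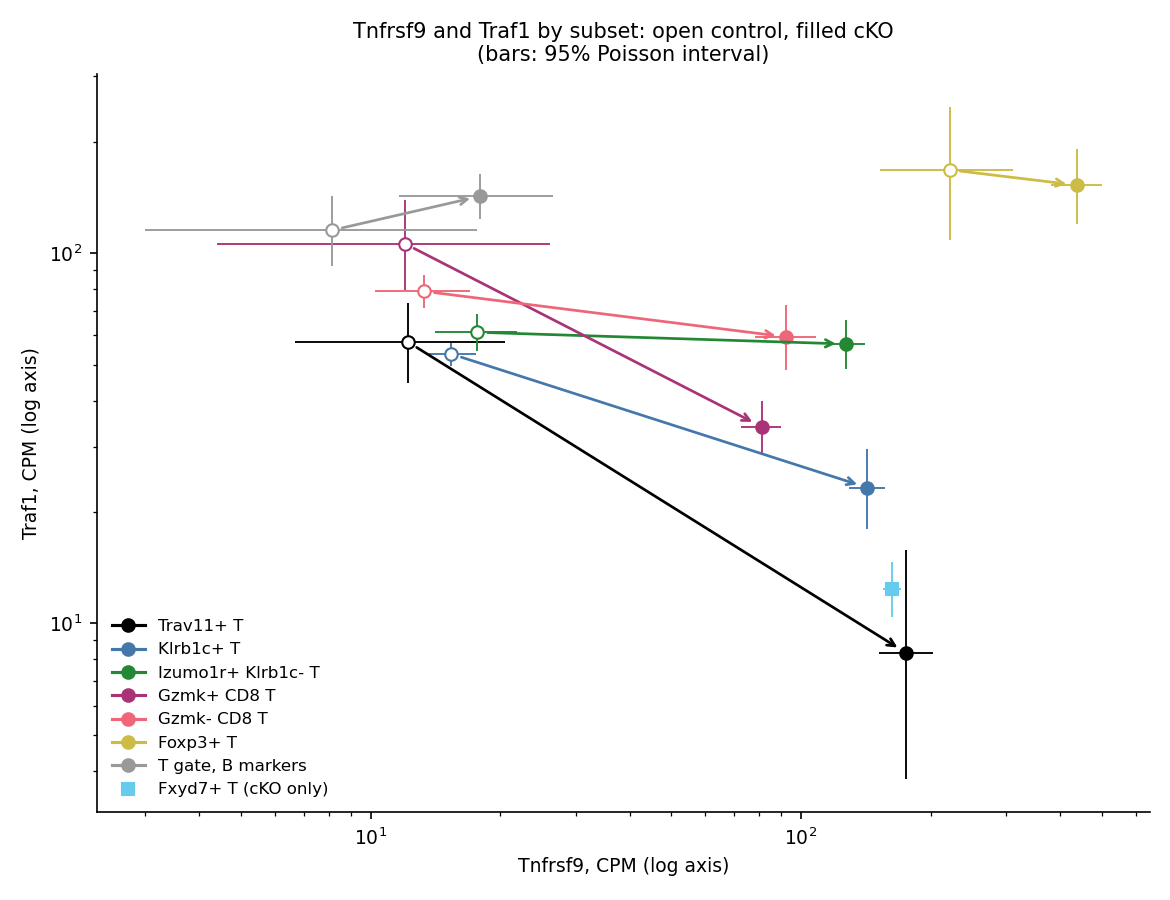
Tnfrsf9 CPM (x, log axis) and Traf1 CPM (y, log axis) are plotted for 7 subsets, with an arrow from control (open) to cKO (filled) and 95% Poisson intervals; the square marks Fxyd7+ cells of the cKO library. Every arrow points right, and the arrow of Trav11+ cells drops furthest, from 57.6 to 8.32 CPM of Traf1, while that of Izumo1r+ Klrb1c- cells, which include Cd4+ Ctla4+ cells and cells with B cell markers, goes from 61.1 to 56.8 CPM.

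Traf1 was found in few cKO cells both with and without a Tnfrsf9 UMI. In thinned cells of the first class, Traf1 was found in 13 of 510 cKO cells with a Tnfrsf9 UMI, 2.55% (1.36 to 4.32), and in 73 of 2357 without one, 3.10% (2.43 to 3.88). In control it was found in 10 of 100 cells with Tnfrsf9, 10.0% (4.90 to 17.6), and in 336 of 4229 without, 7.95% (7.15 to 8.80). The intervals overlap within each library, and for both kinds of cell the cKO interval lies below that of control.

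In Cd4+ Ctla4+ T cells 5 of the 8 genes were called higher in cKO cells and none lower, and Traf1 was among those higher. Of 6348 genes reaching 20 CPM in this class, 9.61% were called higher and 8.19% lower, and the median log2 ratio was 0.73 over the 8 genes and 0.04 over all. Only 48 control cells stand behind the control values. Tnfrsf4 had 55 UMIs, 143 CPM (108 to 186), in the control library against 641 UMIs, 580 CPM (536 to 626), in the cKO library, a ratio of 4.01 (3.07 to 5.43). Of those 641 UMIs 1 cell held 96, and without the highest cell of each library the ratio was 4.22 (3.14 to 5.91). Tnfrsf9 stood at 28.6 CPM (14.3 to 51.2) and 201 CPM (175 to 229), a ratio of 6.72 (3.84 to 14.2).

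Tnfrsf18 stood at 211 CPM (168 to 262) and 343 CPM (309 to 379), a ratio of 1.62 (1.28 to 2.09). Tnfsf8 stood at 75.5 CPM (50.6 to 108) and 174 CPM (151 to 201), a ratio of 2.28 (1.56 to 3.54). Traf1 had 30 UMIs, 78.1 CPM (52.7 to 112), in the control library against 148 UMIs, 134 CPM (113 to 157), in the cKO library, a ratio of 1.69 (1.15 to 2.63). The 3 remaining genes were not called: Tnfrsf1b was at 49.5 and 72.3 CPM, Cd27 at 169 and 239 CPM and Traf2 at 46.9 and 27.1 CPM.

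These cKO cells also had more Foxp3, the gene that marks regulatory T cells, at 26.0 CPM in the control against 141 CPM in the cKO library. The 6 markers of regulatory or activated CD4 T cells, of which Foxp3 is 1, summed to 1260 and 2159 CPM, and the 7 NK markers to 263 and 19.0 CPM, with all 4 NK markers that reached 20 CPM called lower. The part of the NK markers in the values of the class was not tested, and for Foxp3 the class was split. In the cells without a Foxp3 UMI, 42 control and 92 cKO, Tnfrsf9 was at 18.6 and 38.2 CPM with a ratio of 1.93 (0.835 to 6.07), and Traf1 at 86.8 and 120 CPM with a ratio of 1.37 (0.896 to 2.20), neither called. Tnfrsf4, at 118 and 259 CPM, and Tnfsf8, at 86.8 and 233 CPM, were still called higher there. The 36 cKO cells with Foxp3 held 194 of the 222 Tnfrsf9 UMIs of the class, against 5 of 11 in the 6 such control cells. Within these Foxp3+ cells Tnfrsf9 was called higher, at 81.25 and 519 CPM with a ratio of 5.82 (2.69 to 19.9). In the same cells Traf1 had 2 UMIs in control and 60 in cKO, a ratio of 3.98 (1.31 to 41.7), which was called higher. Over all Foxp3+ cells of the first class, 23 control and 62 cKO, Tnfrsf4 stood at 752 and 1236 CPM, Tnfrsf9 at 222 and 437 CPM and Traf1 at 168 and 153 CPM. Tnfrsf4 and Tnfrsf9 were called higher there, Tnfrsf9 with a ratio of 1.95 (1.36 to 2.94), and Traf1 was not called.

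In CD8 T cells Tnfrsf9, Tnfrsf1b and Tnfrsf4 were called higher in cKO cells and Traf1 lower, while Cd27 and Traf2 were not called. Of 5912 genes reaching 20 CPM, 22.3% were called higher and 6.29% lower, and the median log2 ratio was 0.13 over the 8 genes and 0.28 over all. Median-ratio scaling moved all log2 ratios of the class by -0.23 and totals without mitochondrial and ribosomal protein genes by -0.29, and the share of calls that were higher went from 78.0% to 48.3% and 41.4%. Tnfrsf9 stood at 13.2 CPM (10.3 to 16.7) in the control against 84.2 CPM (77.0 to 91.9) in the cKO library, a ratio of 6.34 (4.96 to 8.33). Tnfrsf1b stood at 23.1 CPM (19.2 to 27.6) and 44.1 CPM (39.0 to 49.8), a ratio of 1.90 (1.53 to 2.38). Traf1 had 426 UMIs, 81.5 CPM (73.9 to 89.6), in the control library against 245 UMIs, 41.1 CPM (36.1 to 46.6), in the cKO library, a ratio of 0.505 (0.429 to 0.592).

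The Tnfrsf4 call in CD8 T cells rested on 1 cell. It had 71 UMIs in the control against 155 in the cKO library, 13.6 and 26.0 CPM, but 63 of the 155 came from a single cell. Without the highest cell of each library the levels were 12.3 and 15.5 CPM, a ratio of 1.26 (0.909 to 1.77). In CD8 T cells without Cd4 UMIs, 850 control and 531 cKO, Tnfrsf4 was at 12.7 and 7.87 CPM. Tnfrsf18, at 93.1 and 69.6 CPM, and Tnfsf8, at 32.7 and 26.7 CPM, were not called in the whole class. In the cells without Cd4 both were called lower, at 90.8 and 60.0 CPM and at 34.4 and 22.1 CPM.

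The CD8 class was made up differently in the 2 libraries. Gzmk, a granzyme gene of effector and memory CD8 T cells, was found in 67 of 907 control and 416 of 621 cKO cells. In the Gzmk+ cells Traf1 stood at 106 and 34.0 CPM, 3.14-fold lower in cKO (2.23 to 4.30), and Tnfrsf9 at 12.0 and 81.1 CPM. In the Gzmk- cells Tnfrsf9 was at 13.3 and 92.4 CPM and Tnfsf8 at 34.2 and 61.2 CPM, both called higher. Tnfrsf4, at 14.2 and 72.6 CPM, was called higher there too. Of the 159 cKO Tnfsf8 UMIs of the whole class, 1 cell held 26 and the Cd4+ cells held 41. Without the highest cell of each library Tnfsf8 stood at 32.02 and 22.38 CPM in the whole class, not called. The part of that cell and of Cd4+ cells in the Gzmk- values was not tested. Traf1 in the Gzmk- cells, at 78.9 and 59.4 CPM with a ratio of 0.756 (0.597 to 0.942), was not called. The 5 double-positive thymocyte markers summed to 449 and 1152 CPM in this class, the 6 markers of regulatory or activated CD4 T cells to 168 and 530 CPM, and the 8 gut markers to 7.65 and 108 CPM. Tnfrsf9, Tnfrsf1b and Traf1 were called the same way in the cells without Rag1 and Cd4 UMIs, without Cd4+ Ctla4+ and Foxp3+ cells, and without cells holding 2 gut marker UMIs.

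In NK cells Traf1, Tnfrsf18, Cd27 and Traf2 were called lower in cKO cells and none of the 8 genes higher, but the cKO class held 53 cells. The 8 T cell markers were lower there too, with a sum of 1327 CPM in control and 702 CPM in cKO and 3 of the 4 that reached 20 CPM called lower, and their part in the calls was not tested. Of 6308 genes reaching 20 CPM, 7.13% were called higher and 9.78% lower, and 6 of the 8 genes reached 20 CPM. Traf1 had 72 UMIs, 132 CPM (103 to 166), in the control library against 9 UMIs, 21.2 CPM (9.70 to 40.3), in the cKO library, 5.93-fold lower (3.10 to 14.1). Tnfrsf18 stood at 141 and 70.7 CPM, 1.97-fold lower (1.29 to 3.15), and Cd27 at 152 and 75.4 CPM, 1.996-fold lower (1.33 to 3.13). The Tnfrsf18 call was made in 9 of 12 alternatives, with a log2 ratio of 0.30 in the cells without T cell receptor UMIs, and the Cd27 call in 10 of 12. Traf1 was called in 11 of 12 and stood at -0.29 without cells holding markers of other types, which left 56 control and 9 cKO cells. Traf2 had 18 and 5 UMIs, and its call was made in 4 of 12 alternatives. Tnfsf8 had 10 UMIs in the control against 0 in the cKO library, at least 2.59-fold lower against a floor of 3 counts over the group.

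Tnfrsf9 in NK cells was at 91.5 CPM (68.0 to 121) in control, and at 130 CPM (97.6 to 169) in cKO cells, a ratio of 1.41 (0.947 to 2.12). Tnfrsf1b was at 45.8 and 28.3 CPM and not called, and Tnfrsf4 had 1 UMI in each library. At least 2 gut marker UMIs were held by 12 of the 53 cKO NK cells and 0 of the 105 control cells, and the 8 gut markers summed to 1416 CPM, against 7.32 CPM in control. In the 41 cKO cells without them, Tnfrsf9 was at 147 CPM and called higher, with a ratio of 1.61 (1.08 to 2.41), and Traf1 was still 5.82-fold lower (2.96 to 14.8). Only 10 control and 14 cKO cells of the class had no UMI of Trac, Trbc1 or Trbc2, so most hold some T cell receptor RNA.

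**Figure D5:**
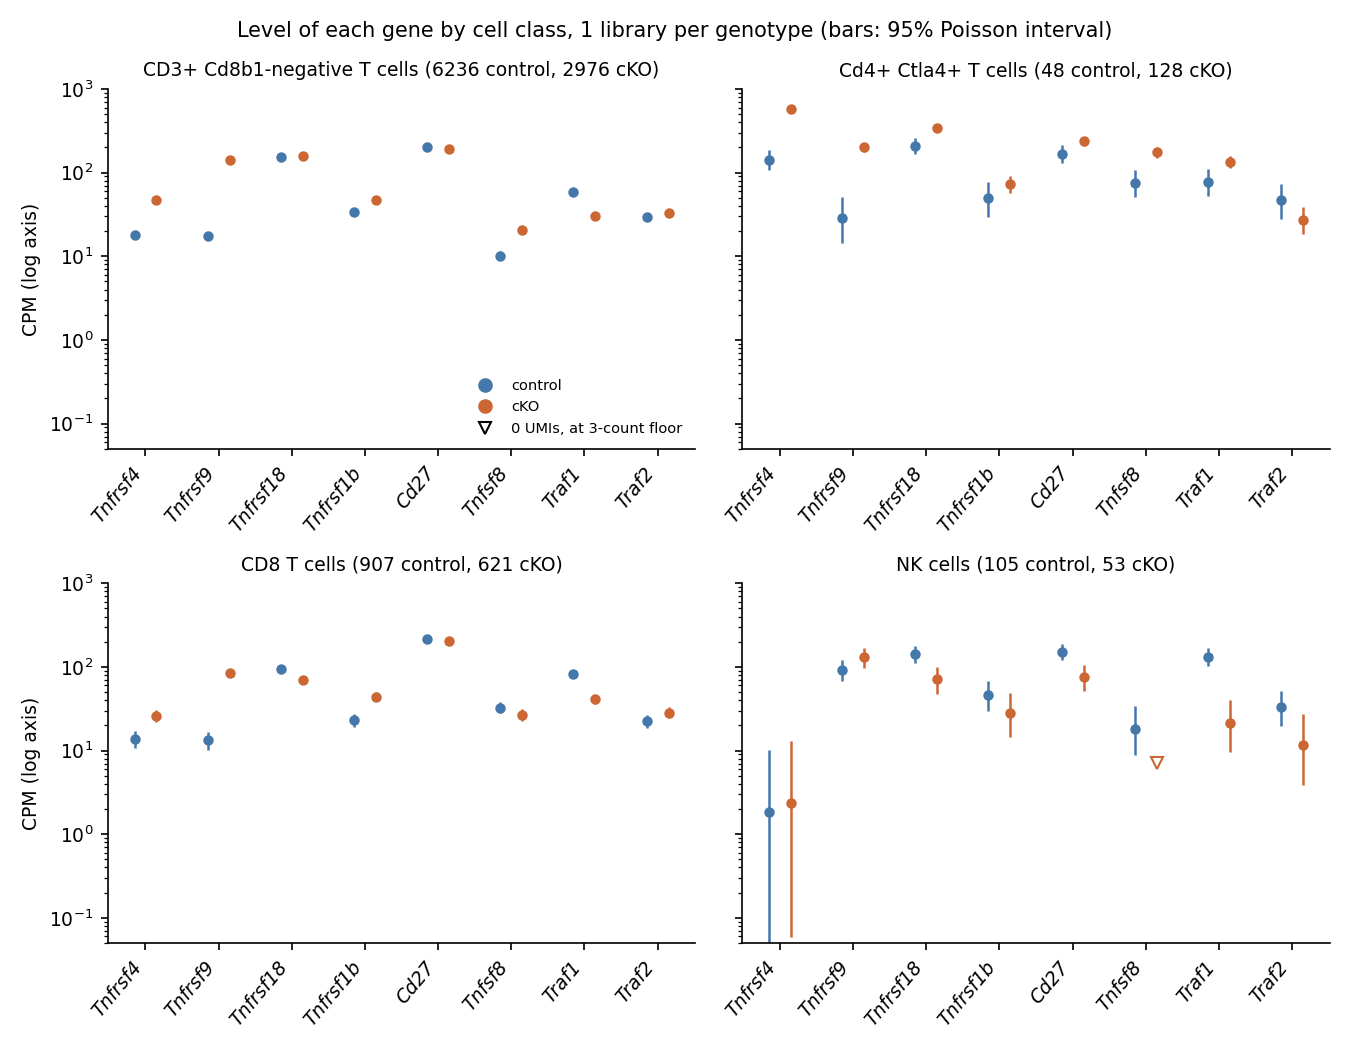
CPM of the 8 genes on a log axis in 4 classes, control in blue and cKO in orange, with 95% Poisson intervals, and a triangle at the 3-count floor where no UMI was found. In control cells Tnfrsf9 was highest in NK cells, at 91.5 CPM, while in cKO cells the 4 classes lay between 84.2 and 201 CPM.

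The order of the classes by Tnfrsf9 level thus differed between the libraries. In control it ran from CD8 T (13.2 CPM) over CD3+ Cd8b1-negative (17.4) and Cd4+ Ctla4+ (28.6) to NK cells (91.5). The counting intervals of all the T cell classes overlap each other there, so their order in control is not resolved. In cKO it ran from CD8 T (84.2) over NK (130) and CD3+ Cd8b1-negative (144) to Cd4+ Ctla4+ cells (201), and the intervals of the middle pair overlap. For Traf1 the control order was CD3+ Cd8b1-negative (58.7 CPM), Cd4+ Ctla4+ (78.1), CD8 T (81.5) and NK cells (132), where the intervals of Cd4+ Ctla4+ cells overlap those of each of the other classes. The cKO order was NK (21.2 CPM), CD3+ Cd8b1-negative (30.5), CD8 T (41.1) and Cd4+ Ctla4+ cells (134), where the interval of NK cells overlaps those of the next 2.

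Over 8 points, these 4 classes made free of overlap in each library, the genes whose log2(CPM + 1) followed Tnfrsf9 most closely among 7245 were Zc3h15, Ywhaz, Rtn4, Rnasek and Hcfc1r1, with Pearson r from 0.96 to 0.98. For Traf1 they were Madd, Ccm2, Nudt14, Arhgdib and Ifi203, with r from 0.92 to 0.94. Tnfrsf9 and Traf1 themselves had an r of -0.19, and Tnfrsf4 and Tnfsf8 one of 0.81. The points share libraries and depth, so these are descriptions.

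The binding partners of these proteins were mostly rare, but Tnfsf9 and Tnfrsf8 were higher in cKO cells. The choice of these partners was made with their values in view. Tnfsf9, the ligand of the Tnfrsf9 product, had 182 UMIs, 6.81 CPM, in the control library against 440 UMIs, 20.1 CPM, in the cKO library of the first class, a ratio of 2.94 (2.47 to 3.52). With median-ratio scaling its log2 ratio was 1.42 but no call was made. In Trav11+ cells it stood at 5.23 and 29.6 CPM, a ratio of 5.30 (2.33 to 16.5). Tnfrsf8 encodes CD30, the receptor for the Tnfsf8 product. It had 7 UMIs in the control against 229 in the cKO library of the first class, 0.262 and 10.4 CPM, a ratio of 37.3 (19.0 to 100.3) but under 20 CPM and so not called. Its levels were 0.872 and 16.6 CPM in Trav11+ cells, and in CD8 T cells it had 0 UMIs in the control against 35 in the cKO library, at least 10.2-fold higher. Without the cells holding B cell markers it had 4 and 221 UMIs, and without those holding gut markers 7 and 215. In contrast, Tnfsf4, the ligand of OX40, had 2 and 7 UMIs in the first class, Tnfsf18, the ligand of GITR, 2 and 6, and Cd70, the ligand of CD27, 4 and 36. Cd70 was at 0.154 and 0.487 CPM once cells with B cell markers were left out. The TNFR2 ligand genes Tnf, at 15.7 and 12.4 CPM, and Lta, at 8.54 and 7.66 CPM, were not called, although in Trav11+ cells Tnf was called lower, at 27.9 and 8.32 CPM.

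Of 22 other TNF receptor genes measured in the first class, 2 were called higher and none lower, of 3 that reached 20 CPM. They were Fas, the death receptor, at 24.5 and 60.6 CPM (ratio 2.47, 2.25 to 2.72), and Tnfrsf13b, which encodes the receptor TACI, at 13.3 and 21.7 CPM (ratio 1.64, 1.42 to 1.89). The B cell markers also summed to more in cKO cells of this class, 72.0 and 218 CPM. Their part in the Tnfrsf13b values was not tested. Over all 5964 genes reaching 20 CPM in this class, 12.7% were called higher and 5.08% lower. Of 16 other ligand genes 6 reached 20 CPM, and 2 were called higher. These were Tnfsf9 and Tnfsf14, which encodes LIGHT and stood at 21.9 and 48.1 CPM. Ltb, the lymphotoxin beta gene, was the 1 called lower, at 1011 and 453 CPM, and it was lower as well in CD8 T cells, at 691 and 213 CPM, and in NK cells, at 467 and 89.5 CPM.

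None of 18 other TRAF and receptor-proximal adaptor genes was called in the first class, with a median log2 ratio of 0.05 over the 10 that reached 20 CPM. Among 12 ubiquitin editors, of which 9 reached 20 CPM, Otulin, which removes linear ubiquitin chains, was called higher, at 71.5 and 114 CPM. Tnfaip3, which encodes the NF-kB brake A20, was called lower, at 84.5 and 44.4 CPM. Of 19 NF-kB factors and kinases 14 reached 20 CPM and 1 was called. This was Nfkb1, which encodes the p50 precursor, at 96.9 and 145 CPM with a ratio of 1.502 (1.42 to 1.58). Of 18 NF-kB induced genes, Plek was called higher, at 9.96 and 34.4 CPM, and Icam1, an adhesion molecule gene, lower, at 57.6 and 38.2 CPM, beside Tnfaip3, which is on this list too. The median log2 ratio over the 13 of these that reached 20 CPM was -0.09, against 0.16 over all genes. Under either other scaling the calls of Tnfrsf13b, Otulin and Nfkb1 were lost, with log2 ratios of 0.57, 0.54 and 0.45 under median-ratio scaling, and Nfkbid and Nfkbiz, which encode nuclear IkB proteins, were called lower, at -0.71 and -0.61. Fas, Tnfsf14, Ltb, Tnfaip3, Plek and Icam1 were called the same way under both. With totals without mitochondrial and ribosomal protein genes alone, Traf4, of the adaptor list, and the receptor gene Relt were called lower, at -1.34 and -0.87. Il2ra, an NF-kB induced gene, was called higher there, at 1.02. In the main setting Traf4, Relt and Il2ra stood at -1.18, -0.71 and 1.19 and were not called.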

How the data were processed

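Single-cell RNA was counted in 1 library of YFP+ thymus cells per genotype. The authors deposited whole-number UMI counts per gene and barcode, made from 3′ libraries per the labels' protocols. Per the submitters' processing notes, Cell Ranger 2.1.1 and mm10 were used, while the file headers name software version 3.0.0; alignment settings and the annotation: not given in the sources used here. The control matrix holds 10102 barcodes and 35210431 UMIs, the cKO matrix 11206 and 39979742, each barcode with at least 500 UMIs.

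Barcodes were kept from 500 detected genes upwards and up to 10% mitochondrial UMIs. Doublets were not called or removed; leaving out cells with B or gut markers was tried instead. UMIs were summed over cells and divided by all UMIs of those cells (CPM). Ratios add 0.5 UMIs to both sums and carry exact conditional binomial 95% intervals; levels carry exact Poisson and shares Clopper-Pearson intervals. All cover counting error only, and 3 counts over the group stood as the floor for a count of 0. For shares, gates came from whole cells and gene counts from cells thinned to 1500 UMIs.

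The 8 genes are named whatever their values, with Ets1, up to 4 called genes of each list with the largest ratios, and the 5 genes most like each of Tnfrsf9 and Traf1, these last leaving out mitochondrial, ribosomal protein, receptor segment and sex-linked genes. The members and lists were chosen with earlier results of these data known. The subsets by Foxp3, Gzmk, Cd4 and marker UMIs, the binding partners and the single-cell check were added after values were seen. All 8 genes and 99.6% of the identifiers were found in GENCODE vM21 (GRCm38), the source of gene positions. The size rule was tried on simulated counts with counting error only, which cannot show how it behaves under spread between mice, libraries or cells. Alternatives covered filters, gates, scaling, depth and cells of other types. Sums and intervals were computed with scipy 1.17.1 and numpy 2.4.6, tables with pandas 2.3.3 and figures with matplotlib 3.10.9, under Python 3.11.15.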

Additional observations from a re-analysis of the deposited data

Results flagged for a closer look

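A pair of genes was called in opposite directions in different cell classes. Traf1 had log2 ratios, cKO over control, of -0.94 in CD3+ Cd8b1-negative T, -0.99 in CD8 T and -2.57 in NK cells, but 0.76 in Cd4+ Ctla4+ T cells. Tnfrsf18 had 0.69 in Cd4+ Ctla4+ T and -0.98 in NK cells. With 1 library per genotype the differences between classes were not tested. Most Cd4+ Ctla4+ cells are also part of the CD3+ Cd8b1-negative class, 45 of 48 in control and 111 of 128 in cKO. The Traf1 call in Cd4+ Ctla4+ cells was made in 12 of 14 alternatives and that of Tnfrsf18 in 11 of 14.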

How the results depend on the processing

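Tnfrsf9 and Traf1 were called in the same direction in all 16 alternatives tried in CD3+ Cd8b1-negative T cells and all 15 in CD8 T cells. In the first class the Tnfrsf9 log2 ratio (3.04) was 2.87 with totals without mitochondrial and ribosomal protein genes, 2.90 with median-ratio scaling, 3.23 after thinning, 3.25 without cells holding 2 UMIs of B, myeloid, gut or stromal markers, which left 956 of 2976 cKO cells, and 3.80 in Trav11+ cells. Traf1 (-0.94) stood under the same settings at -1.11, -1.08, -1.28, -1.48 and -2.72. It was -1.15 with at least 2 CD3 UMIs, -1.31 without B marker cells, -1.21 without Cd4+ Ctla4+ and Foxp3+ cells, and -1.76 without both.

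Called values that changed sign were Tnfrsf4 in CD8 T cells, at -0.46 with equal weight per cell, -1.17 after thinning, -0.69 without Rag1 or Cd4 UMIs and -0.34 without Cd4+ Ctla4+ and Foxp3+ cells. In Cd4+ Ctla4+ cells, where thinning before the gates left 1 control and 21 cKO cells, Tnfsf8 was then at -2.81 and Traf1 at -2.07. In NK cells Tnfrsf18 was at 0.30 in the 10 control and 14 cKO cells without T cell receptor UMIs, and Traf2 at 0.92 without cells of other types, which left 9 cKO cells. There Traf1 was at -0.29 and not called.

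Counts of called genes went from 1061 to 402 with a 2-fold rule and 542 at 50 CPM in the first class, and from 1693 to 575 and 813 in CD8 T cells. In Cd4+ Ctla4+ cells they went from 1130 to 718 and 733, to 46 after thinning and to 564 without cells of other types. In NK cells they went from 1067 to 2112 with equal weight, 300 after thinning, 411 without cells of other types, 282 without T cell receptor UMIs and 695 at 50 CPM. Beyond fewer cells or genes, the cause was not tested. Of all values, 418 stayed close and 96 moved, and 8 that had been called changed sign. Values near 0 that were not called also changed sign: in the first class Tnfrsf18 kept its sign in 12, Cd27 in 11 and Traf2 in 15 of 16 alternatives. No paired analysis was possible because each genotype has 1 library. Depth differed between the libraries, and the Cd4+ Ctla4+ class held 48 control and the NK class 53 cKO cells.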
